A study of Caenorhabditis elegans with 2 samples.

Results

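The 514 peaks described here were called in ChIP-seq of the worm transcription factor ZIP-5. They lie inside introns of protein-coding genes, away from tRNA and snoRNA genes. They were taken from the nuclear peaks called on both replicates together (the pooled list, 4362 peaks), of which 2359 (54.1%) were overlapped by at least 1 bp in the list of each replicate. A summit, the position of the highest signal in a peak, had to lie within a protein-coding gene but in no exon, outside every window from 1000 bp upstream to 200 bp downstream of a gene's outermost annotated start, and more than 100 bp from any tRNA or snoRNA gene. The same location rule without the replicate step gave 1168 peaks, of which the 514 were 44.0%. The authors label the pooled list as peaks and background. The 430 of the 514 that are no entries of their optimal set, described below, may therefore include background.

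ChIP-seq recovers DNA bound to a protein and reports the places where reads pile up. The animals were hermaphrodite Caenorhabditis elegans late embryos of strain OP544, collected 4 h after synchronization by bleaching, whose genotype is unc-119(tm4063) III with the insertion wgIs544. That insertion stably expresses ZIP-5 with a GFP-FLAG tag at its C terminus, and an antibody against GFP was used on whole organisms. The 2 biological replicates form 1 group, the promoter that drives the transgene is not stated in the labels, and signals from different cell types are mixed.

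ZIP-5 belongs to the basic leucine zipper (bZIP) family, whose members bind short palindromic sites as dimers. Introns of C. elegans genes can hold enhancers, internal promoters that start shorter transcripts, and small non-coding RNA genes with their own promoters. The peaks were therefore ordered by such features: recurrent sequences, further transcript starts, RNA genes, and host genes. Lists of regions from 2 libraries carry no replicate error per region, so all shares below are descriptions, and their exact Clopper-Pearson 95% intervals cover the counting of regions only.

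The sequences at the summits of the intronic peaks ranked 2, 5 and 6 by signal are shown because they rank near the top and hold none of the recurrent words described next. All sequences are from the RefSeq genome of WBcel235, the build ce11 of the peak lists, 5′ to 3′ on the strand named, and these windows are centred on the summit.
Y39A1C.1 chrIII:10856965-10857065 plus strand: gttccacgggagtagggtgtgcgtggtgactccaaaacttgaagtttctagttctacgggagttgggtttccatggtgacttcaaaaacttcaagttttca
hmt-1 chrIII:11091784-11091884 plus strand: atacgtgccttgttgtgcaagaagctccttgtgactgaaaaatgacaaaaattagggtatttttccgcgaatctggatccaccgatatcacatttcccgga
hmt-1 chrIII:11093609-11093709 plus strand: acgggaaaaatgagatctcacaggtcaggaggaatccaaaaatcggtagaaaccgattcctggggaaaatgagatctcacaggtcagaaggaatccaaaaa
The third of these holds a direct repeat: 39 of 40 bases equal those 59 bases further on. Such repeats, with at least 34 of 40 bases equal at a shift of 20 to 100 bases, were in 24 of the 514 intronic summit windows (4.67%, interval 3.01 to 6.87). They were in 18 of 1028 flanking windows (1.75%, interval 1.04 to 2.75), in 4.53% of 117387 windows of the same 201 bases tiled over eligible intron, and in 0.830% of promoter peaks. The share at the summits was thus above that of the flanks, which were not limited to intron, and close to that of the tiles. It was 7.14% of the 84 intronic peaks that are entries of the authors' optimal set, described below (interval 2.67 to 14.9).

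Next come 40 bases round 2 words of 8 bases that overlap each other on opposite strands, GGAGTACA and ACTCCTCT. Capitals mark GGAGTACA, and in the pptr-2 and Y65A5A.2 windows the bases aga before it complete the reverse complement of ACTCCTCT.
pptr-2 chrV:11029445-11029484 plus strand: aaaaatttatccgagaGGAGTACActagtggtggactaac
Y56A3A.7 chrIII:11946549-11946588 minus strand: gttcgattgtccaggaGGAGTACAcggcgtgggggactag
Y65A5A.2 chrIV:16415253-16415292 plus strand: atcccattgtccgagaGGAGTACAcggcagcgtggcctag
mtrf-1L chrIV:5188234-5188273 minus strand: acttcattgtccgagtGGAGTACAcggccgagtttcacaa
The joined word AGAGGAGTACA lay at 5 intronic summits, in pptr-2, Y65A5A.2 (both of its peaks), ari-1.4 and F53F1.3. At both Y65A5A.2 summits the reverse complement of CTAGGCCA, the third word, followed within 25 bases. The windows that follow show CTAGGCCA in capitals, from strong to weak peaks.
Y65A5A.2 chrIV:16415269-16415308 minus strand: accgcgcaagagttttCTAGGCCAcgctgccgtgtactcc
Y65A5A.2 chrIV:16415775-16415814 minus strand: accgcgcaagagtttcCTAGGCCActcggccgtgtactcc
par-1 chrV:14133136-14133175 minus strand: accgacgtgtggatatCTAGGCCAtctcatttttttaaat
hgrs-1 chrIV:8205461-8205500 plus strand: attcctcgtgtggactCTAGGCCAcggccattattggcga
vab-7 chrIII:10921964-10922003 plus strand: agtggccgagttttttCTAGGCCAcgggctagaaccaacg
plx-1 chrIV:983331-983370 minus strand: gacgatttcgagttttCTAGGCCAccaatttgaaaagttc
nlp-26 chrV:19614092-19614131 plus strand: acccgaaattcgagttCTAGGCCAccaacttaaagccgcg
Of 48 occurrences of CTAGGCCA in the windows of 100 bp each side of intronic summits, 34 were followed by C and 32 were preceded by TT.

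A word found in tandem arrays, GCAGATCC, is shown in capitals in 4 windows that hold 1 or 2 copies. It was picked after its counts in these windows were seen.
sfa-1 chrIV:17108395-17108434 plus strand: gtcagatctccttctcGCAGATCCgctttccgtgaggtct
mif-1 chrIII:11848516-11848555 minus strand: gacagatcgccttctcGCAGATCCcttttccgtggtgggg
Y45G5AM.9 chrV:4181988-4182027 plus strand: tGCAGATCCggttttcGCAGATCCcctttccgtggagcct
egl-4 chrIV:1854093-1854132 plus strand: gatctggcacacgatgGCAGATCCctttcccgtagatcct
Finally, 81 bases centred on 2 summits inside small RNA loci are shown, the ncRNA gene T28D6.13 within tba-7 (an alpha-tubulin) and a locus within unc-104 (a kinesin of synaptic vesicle transport) that RefSeq annotates as a tRNA pseudogene.
tba-7 chrIII:11371426-11371506 plus strand: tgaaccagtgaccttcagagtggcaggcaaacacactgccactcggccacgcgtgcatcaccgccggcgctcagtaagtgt
unc-104 chrII:7001607-7001687 plus strand: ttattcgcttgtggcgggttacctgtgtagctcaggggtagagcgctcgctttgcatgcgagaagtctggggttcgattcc

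The signal value, the authors' own score of a peak on an unstated scale, was low for most intronic peaks. In the pooled list it ran from 48.4 to 456.1 with a median of 64.0 (quartiles 56.4 and 77.9). The 1084 replicated promoter peaks had a median of 81.6, the 345 intergenic peaks 63.3, the 158 exon peaks 61.0 and the 258 peaks at tRNA or snoRNA genes 126. The intronic peaks thus sat close to the intergenic and exon peaks, and below the other 2 classes, as the plot of signal by location shows. The 109 replicated intronic peaks within 100 bp of a tRNA or snoRNA gene, which the rule sets apart, had a median of 131.

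**Figure D1:**
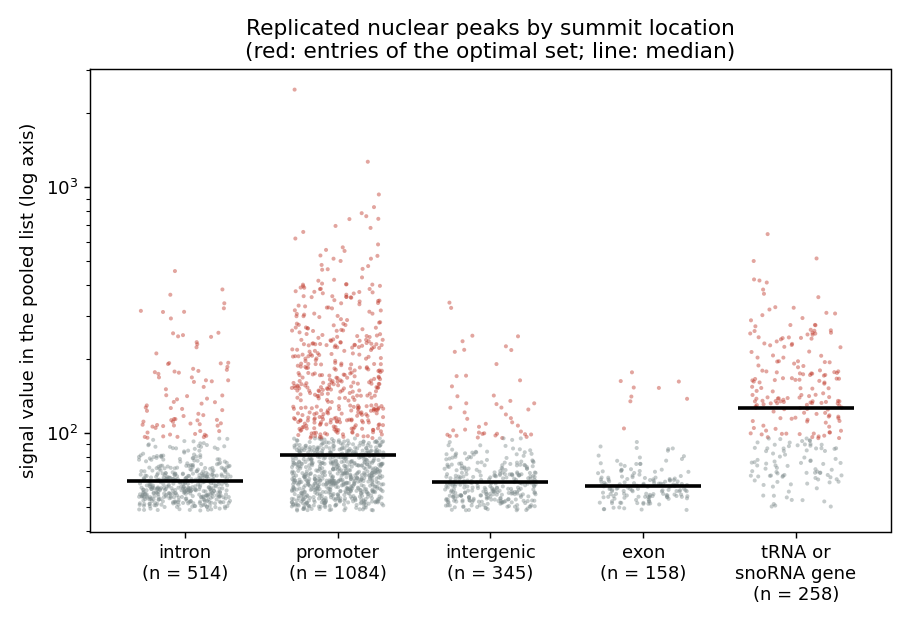
Signal value in the pooled list (log axis) of each replicated nuclear peak, by the location of its summit. Red points are entries of the optimal set, grey points are not, and black lines are medians, which were 64.0 for the 514 intronic peaks and 81.6 for the 1084 promoter peaks.

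The authors' optimal set, derived from the ranks of peaks in both replicates, overlapped 19.6% of the 514 intronic peaks (interval 16.3 to 23.4), against 35.6% of all 2359 replicated peaks. The share was 43.6% of promoter peaks, 17.7% of intergenic peaks, 15.8% of exon peaks and 69.8% of tRNA or snoRNA peaks. Of the intronic peaks, 84 (16.3%, interval 13.2 to 19.8) were themselves entries of the optimal set, against 30.9% of all replicated peaks, and 17 only overlapped an entry. The 84 made up 11.5% of the 730 nuclear entries. Entry followed the signal: the weakest intronic entry had 95.6 and the strongest intronic peak that was no entry had 94.9.

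Each intronic peak was given the value of the overlapping replicate peak with the nearest summit. Replicate 1 values ran from 24.06 to 254.0 (median 32.0) and replicate 2 values from 25.52 to 646.1 (median 34.3). Over all 514 peaks Spearman's rho between the replicate lists was 0.490, and Pearson's r of log10 signal was 0.738. The rank correlation was 0.652 over the 84 entries and 0.192 over the 430 others. The promoter peaks had a rho of 0.750, the intergenic peaks 0.462 and the tRNA or snoRNA peaks 0.802. The points are peaks of 2 libraries, the sets differ in their range of signal, and the optimal set was itself derived from ranks in both replicates, so a higher agreement among entries is in part fixed by that choice. The replicate summits lay within 100 bp of each other for 361 intronic peaks (70.2%) and for 79 of the entries (94.0%), with the same limit.

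Some neighbouring peaks were not separate measurements. Peaks were 444 bp wide in 505 of 514 cases (98.2%), so widths say little about the bound region. Another peak of the pooled list overlapped 108 of the intronic peaks (21.0%), and 32 of these were entries. Grouping summits within 500 bp of the next gave 466 groups, with 95 peaks in groups of at least 2. A replicate 1 peak was shared with another intronic peak in 58 cases and a replicate 2 peak in 44. The highest replicate 2 value, 646.1, belongs to the M01F1.8 peak (pooled 80.12, replicate 1 38.63), whose 2 replicate summits lie 175 bp apart.

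**Figure D2:**
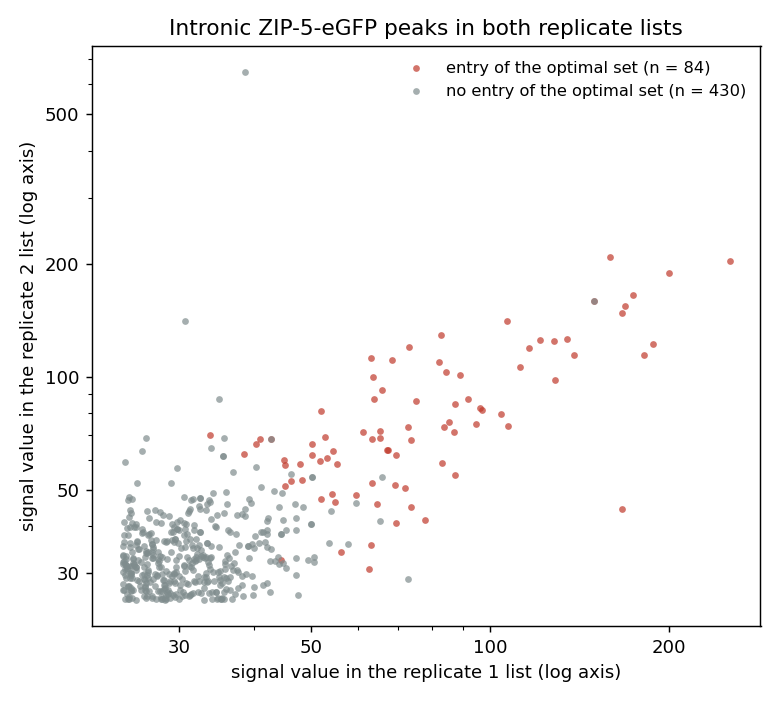
Signal value of each intronic peak in the replicate 1 list against that in the replicate 2 list, both on log axes. The 84 entries of the optimal set (red) follow the diagonal with a rho of 0.652, and the 430 other peaks (grey) form a cloud at the low end with a rho of 0.192.

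The 20 strongest intronic peaks, all entries of the optimal set, lay in 18 genes. The highest was in intron 5 of W05H12.1 (chromosome I, 13421040 to 13421261), with 456.1 in the pooled list, 254.0 in replicate 1 and 203.2 in replicate 2. Another peak of W05H12.1, in intron 8, had 292.5, 181.8 and 114.6. Y39A1C.1 followed with 383.9, 200.6 and 188.6, and K05C4.2 with 365.3, 159.4 and 208.5. The peak in eif-3.I, which encodes a subunit of translation initiation factor 3, had 337.2, 174.1 and 165.0.

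The heavy-metal tolerance transporter gene hmt-1 held 2 of the 20, with pooled values of 321.7 and 314.1, replicate 1 values of 168.8 and 166.7, and replicate 2 values of 154.6 and 148.1. Its 2 weaker peaks, at 123.9 and 108.6, overlapped these. The regulatory subunit gene of protein phosphatase 2A, pptr-2, had 311.3 (149.9 and 159.2 in replicates 1 and 2), and num-1, the Numb homologue, had 310.8 (188.0 and 122.4). In both replicates these genes had values far above the median intronic peak. They were picked by the pooled list, called on both replicates together, so this is in part fixed by that choice.

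Below them stood tbc-9 (255.8), the splicing factor gene sfa-1 (254.5), the Integrator subunit gene ints-8 (250.2) and the phosphatidylserine synthase gene pssy-2 (247.3). T02E1.2 had 246.1 and lin-17, a Frizzled-type Wnt receptor gene, had 234.2. Y56A3A.7 (229.7), Y65A5A.2 (223.2), the dynein heavy chain gene dhc-4 (210.8), the Notch ligand gene apx-1 (193.1) and gly-5 (192.5), an N-acetylgalactosaminyltransferase gene, closed the 20. With RefSeq gene models, the summits in K05C4.2 and T02E1.2 fell in promoter windows, as did 16 of all 514, while 491 stayed intronic and 7 became intergenic. Of the 20, 9 lay in a first intron.

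The 5 intronic peaks with the greatest difference in rank between replicates were in Y116F11A.6 (24.31 in replicate 1, 59.55 in replicate 2), kpc-1 (47.50 and 26.25), Y39E4B.6 (24.63 and 47.82), unc-62 (24.57 and 47.14) and mbk-2 (25.98 and 63.39). In 4 of these 5 the replicate summits were over 200 bp apart, and in mbk-2 they were 15 bp apart. Of the 5 strongest peaks that did not overlap the optimal set, F58G1.7 had 40.31 in replicate 1 and 57.56 in replicate 2, lsy-22 had 50.11 and 54.18, hgrs-1 had 46.16 and 55.29, Y105C5A.1 had 43.29 and 49.80, and afd-1 had 46.98 and 45.88.

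Per length of eligible intron, intronic peaks were densest on chromosomes I and III and sparsest on X. The eligible intron, meaning all bases that satisfy the location rule, came to 30.4 Mb, which gives 16.9 peaks per Mb. Chromosome I had 128 peaks (23.3 per Mb) and III had 113 (23.3 per Mb). Chromosome II had 74 (17.4 per Mb), IV had 89 (16.9 per Mb) and V had 71 (13.1 per Mb). The X chromosome had 39, or 7.65 per Mb, in an eligible length within the range of the other 5 chromosomes (4.26 to 5.50 Mb).

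The contrast was wider for the entries of the optimal set: 25 on III (5.15 per Mb), 24 on I (4.36 per Mb) and 3 on X (0.589 per Mb). Of the 20 strongest, 14 lay on I or III. The median signal was similar on every chromosome, from 61.8 on V to 65.7 on III. Replicated promoter peaks, counted per 1000 protein-coding genes, were also most frequent on I (83.4) and III (79.5), and numbered 38.4 on X and 32.8 on V.

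**Figure D3:**
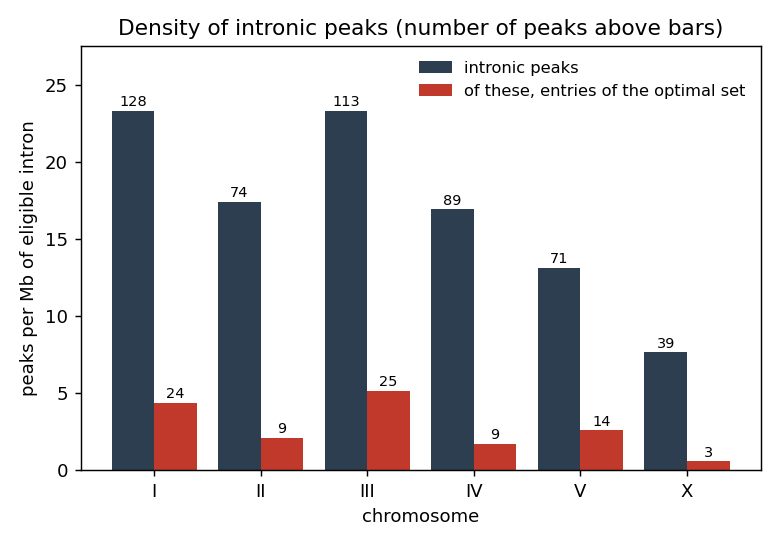
Intronic peaks per Mb of eligible intron on each nuclear chromosome (dark bars) and those that are entries of the optimal set (red bars), with the number of peaks above each bar. Density is 23.3 per Mb on I and III and 7.65 per Mb on X.

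Intronic summits lay more often in first introns and in longer introns than eligible intron bases did. A first intron of at least 1 transcript held 229 peaks (44.6%, interval 40.2 to 49.0), whereas 32.5% of eligible bases were in one. The median distance from summit to the nearest exon was 297 bp for the peaks and 203 bp for eligible bases. The intron holding the summit had a median length of 1172 bp, against 963 bp round an eligible base, and 57.6% of the peaks but 48.6% of the bases were in introns over 1000 bp.

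GC content was higher at the summits than beside them, above all in strong peaks. Within 100 bp of the summit it averaged 39.5%, against 37.0% in windows centred 500 bp away on both sides and 32.8% in the tiled windows. Tiled windows lie wholly in eligible intron, whereas summit windows and flanks can reach into exons. The median difference between summit and flanks was 1.74 percentage points, and 302 peaks (58.8%) were higher at the summit. Of 5 groups by signal, the strongest had means of 42.7% at the summit and 36.7% in the flanks, and in the weakest they were 36.7% and 36.0%. Repeat-masked sequence made up a median of 37.8% of the summit window and 51.7% of tiled windows. Windows of mostly repeated 31-base words, where reads are hard to place, were 12 of the peaks (2.33%) and 9.65% of the tiled windows. Of these 12 peaks, 8 were in the strongest of the 5 groups (7.77% of that group). The share was 2.91% and 0.971% in the next groups and 0% in the weakest.

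CTAGGCCA, in either strand, lay within 100 bp of 27 intronic summits (5.25%, interval 3.49 to 7.55). It was in 2.63% of the flanking windows, 1.64% of the tiled windows and 10.2% of promoter peaks. Its share did not follow the signal: 3 of 84 entries (3.57%) and 24 of 430 other peaks (5.58%) held it. The 3 entries were the 2 peaks of Y65A5A.2 (223.2 and 138.0) and one in the polarity kinase gene par-1 (96.43). Next came hgrs-1 (92.66), a gene of endosomal sorting, then let-526 (87.88), Y39A3CL.4 (77.78 and 51.44), pri-2 (75.24), the homeobox gene vab-7 (71.15), hxk-2 (68.33), the plexin gene plx-1 (66.37) and nlp-25 (65.92). The remaining values ran from 65.70 in prmt-5 to 48.62 in dys-1, in aat-9, drag-1, grd-16, kpc-1 (2 peaks), nlp-26, clik-3, haf-6, nhr-41, rgs-4, Y66A7A.4, alkb-7 and H05C05.1.

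GGAGTACA and ACTCCTCT were, in contrast, mostly in entries. ACTCCTCT was at 9 summits (1.75%), 7 of them entries, and GGAGTACA at 9 summits (1.75%), 6 of them entries. Their shares were 8.33% and 7.14% of entries, against 0.465% and 0.698% of the other intronic peaks. In flanking windows they were 0.973% and 1.07%, in tiled windows 0.308% and 0.721%, and in promoter peaks 4.52% and 4.15%. Both flank shares were inside the interval of the 1.75% at all intronic summits (0.804 to 3.30). The joined word occurred in 5 intronic peaks (median signal 138, all entries), in 0.0486% of tiled windows and in 2.77% of promoter peaks. The 5 had 311.3 (pptr-2), 223.2 and 138.0 (Y65A5A.2), 127.0 (ari-1.4) and 104.9 (F53F1.3).

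Sites of the bZIP family were no more frequent at intronic summits than in tiled windows. The palindromes searched were TGACGTCA (the cAMP response element), TTGCGCAA (C/EBP type), TTACGTAA (PAR type) and TGANTCA (AP-1 type). They lay at 4, 2, 0 and 20 intronic summits. The AP-1 type was in 3.89% of the peaks, 4.28% of flanks and 4.42% of tiled windows. It was in 7 of 84 entries (8.33%, interval 3.42 to 16.4), and both background shares lie inside that interval. The cAMP response element was in 0.778% of the peaks and 1.37% of tiled windows. The C/EBP type was in 0.389% of the peaks, 0.292% of flanks and 0.412% of tiled windows. Promoter peaks held the C/EBP type in 1.57% and intergenic peaks in 1.74%. The absence of the PAR type in 514 windows has an upper limit of 0.715%, and 0.205% of tiled windows held it. Absence of these letters from a window says nothing of binding by the factor.

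Of the other sites, the GC box GGGCGG was in 56 peaks (10.9%), 5.93% of flanks, 3.39% of tiled windows and 10.7% of promoter peaks. The GA repeat GAGAGAGA was in 28 peaks (5.45%), against 1.75% of flanks and 1.38% of tiled windows. Other classes held this repeat too: 4.24% of promoter peaks, 6.96% of intergenic peaks and 5.04% of tRNA or snoRNA peaks. The GATA site TGATAA, bound by intestinal and epidermal GATA factors, was in 10.1% of the peaks and in more of the flanks (14.7%) and tiles (16.3%). The E box CACGTG was in 2.53% of the peaks, 4.86% of flanks and 2.71% of tiles. In the same order, the X box part GTTGCC was in 5.84%, 3.99% and 4.44%. Runs of 8 T were in 26.7%, 27.5% and 33.8%, and the acceptor-like TTTTCAG in 19.3%, 21.2% and 23.2%. The B box core GGTTCGA, part of internal promoters of tRNA genes, was in 10 peaks (1.95%), 1.95% of flanks and 1.26% of tiles. Of the tRNA or snoRNA peaks, 49.2% held it. The A box core was in 3 peaks (0.584%), in tba-7, srt-52 and eya-1, against 0.778% of flanks and 0.236% of tiles. It was in 10.9% of the tRNA or snoRNA peaks. All sites were searched on both strands. GC-rich words and the higher GC content of the summits move together, and the part of GC content in these shares was not tested.

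The array word GCAGATCC was at 18 intronic summits (3.50%) in 13 host genes, against 0.584% of flanks and 0.109% of tiled windows. It was in 10 of 84 entries (11.9%) and in 8 of the 430 others (1.86%). Promoter peaks held it in 1.94%, intergenic peaks in 2.03% and exon peaks in 1.27%. Its windows held at least 2 copies in 11 cases and up to 13, and 23 of 26 gaps between neighbouring copies were 15 bases. The genome has 1399 occurrences, 234 of them in eligible intron. The signal of the 18 ran from 56.8 to 254 with a median of 107.

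The strongest of these was the single copy in sfa-1 (254.5), with 134.7 in replicate 1 and 126.3 in replicate 2. The windows of mif-1, a homologue of macrophage migration inhibitory factor (174.0), and Y45G5AM.9 (168.4) also held 1 copy each, as did those of herc-1 (119.7), egl-4 (87.79) and tent-5 (67.89). The Y45G5AM.9 bases printed above, with 2 copies, belong to a weaker peak of that gene (93.74), also among the 18. Its summit lies 94 bp from the second copy. Arrays lay in pad-1 (177.8 and 133.8), W09B6.4 (154.0 and 123.0), F23B12.4 (118.2 and 65.16), duo-3 (96.21), the Patched gene ptc-1 (81.23), the elongation factor gene ell-1 (79.12 and 66.88) and ogdh-1 (56.81), a subunit gene of oxoglutarate dehydrogenase. In 6 of the 18 the window was made mostly of repeated 31-base words, so reads there could come from other copies. That part was not tested.

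Further starts, meaning annotated starts of protein-coding transcripts over 200 bp from their gene's outermost start, lay within 250 bp of 47 intronic summits (9.14%, interval 6.80 to 12.0). The same held for 4.14% of eligible bases. The summit was upstream of the start in 38 of the 47 (80.9%, interval 66.7 to 90.9). Exon bases, which the rule leaves out, follow a start directly, and 69.7% of the eligible bases within 250 bp of a further start were upstream of it, a share inside that interval. The median position was 140 bp upstream (-140 on the plotted axis). In the same 5 groups by signal the share was 14.6% in the strongest, then 10.7%, 8.74% and 6.80%, and 4.90% in the weakest.

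Of the 47, 6 were among the 20 strongest peaks. The pptr-2 summit lay 98 bp upstream of a further start (-98), T02E1.2 at -180, apx-1 at -189 and gly-5 at -164, whereas Y39A1C.1 and num-1 lay downstream at 239 and 247. Other entries upstream of a further start were the cohesin loader gene scc-2 (190.9, at -147), ssup-72 (176.8, at -247), gly-9 (162.3, at -183) and T22F3.2 (109.5, at -155). Below the optimal set came hgrs-1 (-148), the chromatin remodeller gene nurf-1 (-157), vps-25 (-127) and the cGMP-dependent kinase gene egl-4 (-143). Because trans-splicing replaces the first bases of many nematode transcripts, transcription may have begun upstream of an annotated start.

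**Figure D4:**
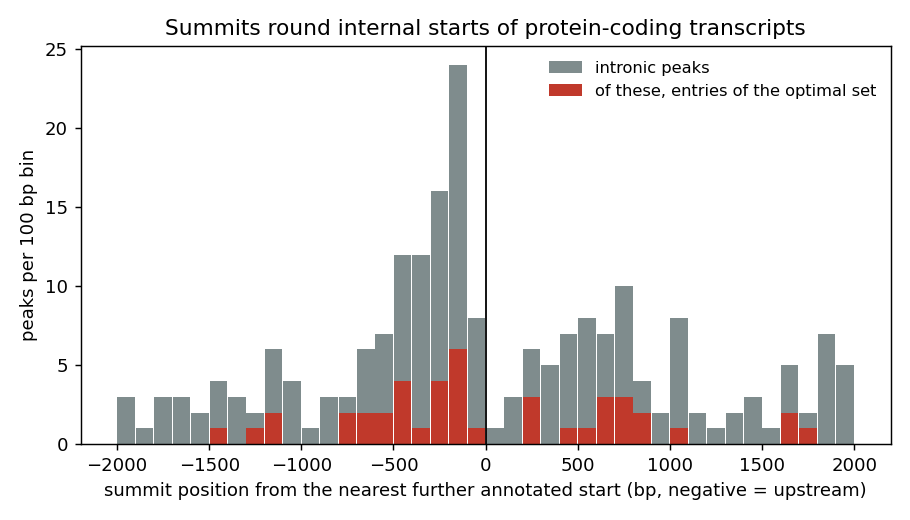
Number of intronic summits in bins of 100 bp by position from the nearest further annotated start of a protein-coding transcript, upstream negative. Grey bars are all intronic peaks and red bars the entries of the optimal set. The fullest bin, from -200 to -100, holds 24 peaks, and the exon bases that follow a start are left out by the rule.

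RNA genes other than tRNA and snoRNA genes lay within 100 bp of 54 intronic summits (10.5%, interval 7.99 to 13.5), against 3.19% of eligible bases. The biotype ncRNA made up 40 of them (7.78% of peaks, 2.36% of bases) and snRNA 7 (1.36% of peaks, 0.0514% of bases). Pseudogenes, which are counted among the 54, had 2 (0.389% of peaks, 0.581% of bases). Antisense RNAs and miRNAs also had 2 each (0.389% of peaks, against 0.134% and 0.0657% of bases). For lincRNAs it was 1 (0.195% of peaks, 0.053% of bases). The summit was inside the RNA gene in 34 cases. GC content averaged 46.4% in these 54 windows.

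The strongest, in ints-8, lay at rpr-1, the RNA component gene of RNase P (250.2 in the pooled list, 121.3 in replicate 1, 125.6 in replicate 2). A weaker peak at its other end had 95.59. The snRNA gene WBGene00014543 in dhc-4 had 210.8 (82.59 and 129.2 in replicates 1 and 2), and the ncRNA gene T28D6.13 in tba-7 had 180.7 (63.01 and 112.3). The ncRNA gene srpr-2.2 in klp-6 had 168.3 (63.54 and 99.65), and srpr-1.2 in ckb-2 had 112.5 (53.15 and 60.75). The tRNA pseudogene in unc-104 had 137.1 (51.94 and 81.32), and it was 1 of 2 intronic peaks within 100 bp of a tRNA pseudogene of RefSeq. The snRNA genes WBGene00014266 in C28A5.6 and WBGene00014484 in mpc-1 had 112.8 and 101.8. sup-6, an snRNA gene in F58G1.7, had 94.85, the strongest value that was no entry. Of the 9 entries at such genes, 8 had the higher value in the replicate 2 list, the other being mpc-1 (54.26 in replicate 1, 48.70 in replicate 2). Over all 84 entries, 40 (47.6%) had the higher value in replicate 2. No scale is stated for either list.

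**Figure D5:**
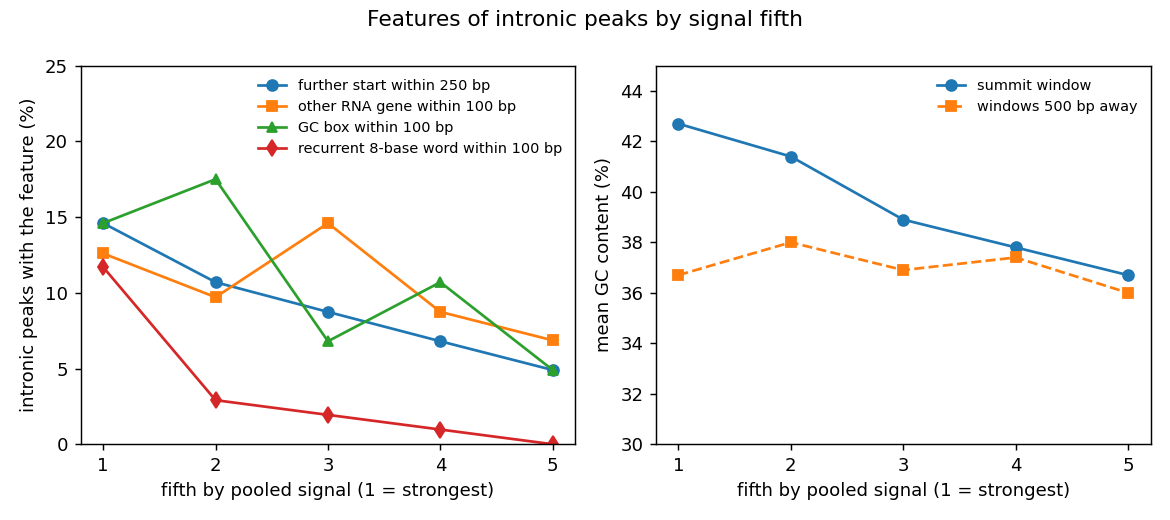
Intronic peaks in 5 groups by pooled signal, from strongest (1) to weakest (5). Left, the share with a further start, another RNA gene, a GC box or the word GCAGATCC near the summit, of which the word is at 11.7% in the strongest group and lies below the other 3 features in every group. Right, mean GC content of the summit window, 42.7% to 36.7%, and of windows 500 bp away, 36.7% to 36.0%.

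None of these features was found at 327 of the 514 peaks (63.6%), counting further starts, other RNA genes, the 3 words, the GC box and GCAGATCC. Their median signal was 61.1, and 39 of the 84 entries (46.4%) were among them, including 6 of the 20 strongest peaks. GAGAGAGA and the other sites were not counted. The share of eligible intron with none of these features is not given, so the 63.6% has no background beside it.

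The intronic peaks lay in 402 genes, 2.01% of 19973 nuclear protein-coding genes. Of these genes, 320 held 1 peak, 55 held 2 and 27 held at least 3. The polyglutamine-rich protein gene pqn-41 had 6, from 51.1 to 117, spread over 17694 bp. The cadherin gene hmr-1 had 5, all below the optimal set (50.5 to 73.4), over 39036 bp of a gene with 47.5 kb of eligible intron. Sets of 4 peaks lay in W05H12.1 (126 to 456, all entries), hmt-1 (109 to 322, all entries), gei-4 (70.0 to 84.8, no entry) and let-526 (55.9 to 99.1, 1 entry), a SWI/SNF subunit gene. W05H12.1 and hmt-1 thus held stronger peaks than gei-4 and hmr-1, in 3.14 and 5.72 kb of eligible intron, against 7.74 kb in gei-4. Their sets of 4 are not 4 separate places. The W05H12.1 peak at 126.3 overlaps that at 292.5, and the 2 weaker hmt-1 peaks overlap the 2 stronger.

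Among genes with 3 peaks, the chromatin factor gene zfp-1 had 161.4, 107.8 and 60.36, ntl-3 had 133.4, 96.39 and 55.23, and par-1 had 106.7, 96.43 and 50.20. In each of these the weakest peak overlapped a stronger one. Y48C3A.5 (66.8 to 132), F23B12.4 (65.2 to 118), ppfr-1 (53.5 to 107) and K08A2.2 (59.8 to 98.5) also held entries. The insulin receptor gene daf-2 (55.1 to 59.5), the heterochronic gene lin-14 (48.7 to 79.7), the homeobox gene unc-62 (58.6 to 72.1), the receptor phosphatase gene ptp-3 (58.0 to 83.2) and the proprotein convertase gene kpc-1 (58.3 to 67.5) held none. The others without an entry were F53A10.2, Y43F8C.6, Y56A3A.2, afd-1, cyp-33D3, flcn-1, lsy-22, mbk-2 and sea-2, with values of up to 94.6 in lsy-22.

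Of 7 gene lists, that of axon guidance, adhesion and extracellular matrix had the most hosts, 12 of 76 genes (15.8%, interval 8.43 to 26.0), against 2.01% of all genes. Its 21 peaks, or 34.5 per Mb of eligible intron against 16.9 per Mb for all 514 peaks, had a median signal of 64.7 and none was an entry. The hosts were hmr-1, mab-20 (a semaphorin), plx-1 (a plexin), ptp-3, sax-7 (an L1 adhesion molecule), unc-33, unc-44 (an ankyrin), unc-5 (a netrin receptor), unc-71, unc-73, vab-2 (an ephrin) and unc-119. The unc-119 peak had 86.18 (41.23 in replicate 1 and 38.71 in replicate 2), and this gene carries the tm4063 allele in the strain. A change at that locus in the strain was not tested as a source of its signal.

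Muscle genes had 6 hosts of 47 (12.8%), with act-4 the strongest (101.8) and lev-11, lim-9, unc-22, unc-52 and dys-1 below. Synapse genes had 5 of 65 (7.69%), led by unc-104 (137.1), with ric-7, unc-26, mod-5 and dop-3. bZIP genes had 3 of 28 (10.7%), zip-2 (98.31), zip-7 (59.08) and zip-6 (54.91), of which zip-2 was an entry. Homeobox genes had 3 of 50 (6.00%), unc-62, vab-7 and ttx-1. The list of ion channels had 1 of 49 (unc-93, 55.6) and that of chromatin regulators 1 of 67 (zfp-1). The lists are incomplete, and the hosts nurf-1 and let-526, named above, and the potassium channel gene kvs-2 (51.36) are in none of them. The genes of these lists differ in intron length, and per Mb of eligible intron the muscle list had 33.0 peaks, the homeobox list 29.6, the bZIP list 25.4, the chromatin list 18.0, the synapse list 15.7 and the channel list 2.51.

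Values just inside and outside the limits of the rule show how the set is bounded. The 3 intronic peaks nearest to a tRNA or snoRNA gene were 107, 140 and 170 bp away with signals of 53.8, 50.5 and 64.9, and the nearest peaks left out were 83, 82 and 77 bp away with 134, 275 and 71.2. The 3 nearest to a promoter window were 22, 31 and 40 bp outside it with 76.4, 177 and 89.9, and those left out lay 3, 9 and 20 bp inside it with 67.1, 49.9 and 70.4.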

How the data were processed

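ChIP-seq peak lists of 2 biological replicates of tagged ZIP-5 were used in build ce11. Per the file listing deposited by the authors, each replicate has a list called against a control. The pooled list was called on both alignments together and is labelled as peaks and background. The optimal set was derived from these 3 relaxed lists. The deposited lists give a signal value per peak, a score whose scale is not stated, and its use here was limited to describing and ranking peaks within a list and to correlations between lists. Aligner, peak caller, caller settings and the limit of the optimal set were not given in the sources used here. Sequencing depth is unknown. The control libraries and the ce10 lists were not used here. The lists held 6253 peaks (replicate 1), 6945 (replicate 2), 4380 (pooled) and 746 (optimal, 730 of them nuclear).

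Summits were located on Ensembl release 115 genes of WBcel235, with overlaps of at least 1 bp. A peak counted as an entry of the optimal set where coordinates and summit were the same in both lists. Sites (16) were searched within 100 bp of the summit, in windows 500 bp away on both sides, and in 201-base windows tiled over eligible intron. The summit windows and the windows 500 bp away were not limited to eligible intron, whereas the tiled windows were. Python 3.11.15 with pandas 2.3.3 and scipy 1.17.1 was used, and location, overlap, site and word counts were tested on simulated data. No test between groups was made, since there is 1 group. Named were the 20 strongest peaks, the 5 with the largest rank difference between replicates, the 5 strongest outside the optimal set, all with CTAGGCCA, genes with at least 3 peaks, and peaks at the limits of the rule. Sequences on chromosome I, and windows sharing 25 bases with it, are not shown. The peaks, sites, words and gene lists were chosen with earlier results of these data known. The names atf-5, ceh-26, ceh-44, unc-110, nca-1, cdh-11 and psa-1 had no match in the annotation. The alternatives were other promoter windows, exons, overlaps, distances, window sizes, RNA gene classes and annotation, and leaving out each replicate or parts of the peaks.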

Additional observations from a re-analysis of the deposited data

How the results depend on the processing

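Over 12 results and 17 alternative settings, 133 values stayed within their counting interval, or within 1.5 times for numbers of peaks and density. Outside these limits were 27 values. Only rho and the GC difference could have changed sign, and neither did. These counts leave out 2 values, the number and share of peaks among those overlapping the optimal set, which only restate the 19.6% of the report. The 4 alternatives with RefSeq genes, without peaks of repeated words, without peaks that overlap another, and with the strongest overlapping replicate peak were chosen after seeing the data. Restricting the set to peaks that overlap the optimal set gave a median signal of 124, a rho of 0.555, 3.32 peaks per Mb, an exon distance of 267 bp, a GC difference of 3.73 points and 2.97% with CTAGGCCA. Leaving out the overlap with 1 replicate gave 776 to 871 peaks, 11.6% to 13.0% overlapping the optimal set, a median signal of 57.7 to 58.3, 25.5 to 28.7 peaks per Mb and a GC difference of 0.746 to 0.995 points. A rho between replicates has no value there. Promoter windows round every transcript start kept 413 of the 514 peaks and 12 of the 20 strongest, with 40.0% in a first intron, an exon distance of 349 bp and 0.969% near a further start, which those windows remove by construction. Without peaks that overlap another pooled peak, 12.8% overlapped the optimal set and rho was 0.406, and with the strongest overlapping replicate peak rho was 0.558. Site windows of 200 bp gave 7.59% with CTAGGCCA, 17.5% with the GC box and 4.28% with the B box core, windows of 50 bp gave 6.03% with the GC box, and a limit of 500 bp gave 18.5% near a further start. With other values the cause was not tested. No paired analysis was possible because there is only 1 group. Depth is unknown, no untagged library was used, and each statement rests on 2 libraries.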
